A study of Mus musculus with 21 samples.

Results

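The Bcl2 family decides whether the outer mitochondrial membrane of a cell stays intact. Survival members (Bcl2, Bcl2l1, Bcl2l2 and Mcl1) hold the effectors Bax and Bak1 in check. BH3-only proteins (Bid, Bcl2l11 or Bim, Bbc3 or Puma, and Bmf) engage the survival members or the effectors when a cell is stressed. Open effector pores release cytochrome c, which activates caspases through Apaf1. In the developing cerebellum many granule neurons and their precursors die by this route, and p53 and FOXO factors are known inducers of some BH3-only genes.

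Of the 10 named members, 9 had at least 1 probe set under their gene symbol in the platform annotation, and 18193 genes in all had such a probe set. Probe sets were taken by gene symbol, with no measured value used, but the list of members was chosen with earlier results of these data known. No probe set is listed under Bax, so this effector was not analysed here. The other 9 members had 33 probe sets, of which 29 passed a filter on dim values. The 4 under it were a probe set each of Bcl2l1 (1426050_at) and Bak1 (1425716_s_at) and a pair of Bmf (1422995_at and 1458325_x_at).

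RNA came from mouse cerebellar tumour cells, sorted by the surface antigen CD15, of medulloblastomas in Patched mice. Patched normally keeps the Hedgehog pathway off, and tumours that follow its loss arise in the granule neuron lineage. The 21 arrays form 4 groups: conventional Patched medulloblastomas gave 6 CD15 positive and 6 CD15 negative samples, and Math1-GFP tumours gave 4 CD15 positive and 5 CD15 negative samples. Math1 (Atoh1) marks granule neuron precursors and GFP is a fluorescent reporter. The labels used here give neither the allele, the strain, the age, the Cre or promoter details nor the number of animals, and no normal cerebellum is among the groups. For every Math1-GFP sample the description names a conventional Patched tumour while the title names Math1-GFP and not Patched, and groups were taken from titles. Nothing in the labels says whether the samples within a group are different animals, so the p-values rest on a spread that may be technical.

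Each value is the signal of a probe set on a linear scale, as deposited. Every array had the same trimmed mean of 150, and array medians ran from 22.13 to 32.68. Differences are on the scale log2(signal + 32), which understates the change of dim probe sets. A gene is represented by its brightest probe set, and 12367 genes were tested together with limma, with p-values adjusted by the Benjamini-Hochberg method over all of them and a threshold of 0.05. Levels of different genes are not compared, since probe sets differ in brightness. These are bulk samples, so fewer cells of a type and less RNA per cell cannot be told apart. Of 8 granule lineage markers 7 had a probe set under their symbol. All 7 passed the filter, with summed signals of 13038 to 28019 on all arrays. In conventional tumours 8 of 8 mitosis markers were higher and 6 of 7 neuron markers lower in the CD15 positive fraction. All 10 measured microglia and macrophage markers were lower in Math1-GFP tumours. Of the lymphocyte markers only 1 passed the filter.

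The windows before the start sites of 3 BH3-only genes are shown, picked on the brightest probe sets. Bbc3 and Bmf had the largest CD15 differences among the members in the average over models. Bcl2l11 is the BH3-only gene whose CD15 differences lay nearest to 0. The windows are from RefSeq (mouse build GRCm38.p6), 250 bases long, and end at the base before the outermost listed start of each gene. Bbc3 lies on the plus strand (chr7:16309333-16309582), Bcl2l11 on the plus strand (chr2:128125788-128126037) and Bmf on the minus strand (chr2:118549687-118549936). Each is printed 5′ to 3′ on the strand of its gene. Capitals mark matches to the motifs searched.
Bbc3: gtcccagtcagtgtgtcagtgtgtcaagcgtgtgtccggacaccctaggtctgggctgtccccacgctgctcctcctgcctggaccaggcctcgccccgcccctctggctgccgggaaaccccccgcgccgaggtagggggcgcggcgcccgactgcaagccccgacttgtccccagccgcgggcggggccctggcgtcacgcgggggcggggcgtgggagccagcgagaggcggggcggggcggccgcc
Bmf: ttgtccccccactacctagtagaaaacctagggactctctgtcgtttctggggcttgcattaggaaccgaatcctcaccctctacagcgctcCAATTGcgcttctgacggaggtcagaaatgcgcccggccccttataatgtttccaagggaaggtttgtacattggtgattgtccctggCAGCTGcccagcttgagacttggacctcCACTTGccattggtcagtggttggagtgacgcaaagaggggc
Bcl2l11: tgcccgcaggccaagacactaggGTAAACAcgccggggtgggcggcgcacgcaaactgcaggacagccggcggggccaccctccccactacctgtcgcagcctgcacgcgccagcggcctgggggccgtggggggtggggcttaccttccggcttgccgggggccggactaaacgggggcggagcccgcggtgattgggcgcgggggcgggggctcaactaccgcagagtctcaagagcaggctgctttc

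The motifs were searched on both strands and do not share letters at any marked place. The Bmf window held 3 E-box matches (CANNTG), the motif of basic helix-loop-helix factors such as Math1, and 66.2% of 32851 windows of the same length held at least 1. The Bcl2l11 window held 1 FOXO match (GTAAACA), present in 3.17% of windows. No member window held the E2F letters TTTNGCGC or the GLI letters GACCACCCA, which were found in 1.13% and 0.225% of windows. The Bbc3 window held none of the 4 motifs and had a GC content of 76.4%, against 54.0% for Bmf and 72.0% for Bcl2l11. A match is a description of letters only. Bbc3 and Bmf each have 3 windows in the table and Bcl2l11 has 2, so other starts of these genes are not shown.

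Bbc3 encodes Puma, a BH3-only protein and p53 target that binds every survival member. Its signal in conventional tumours ran from 94.7 to 215 with a median of 122 in CD15 positive cells, and from 144 to 270 with a median of 226 in CD15 negative cells. In Math1-GFP tumours the CD15 positive arrays read 165, 153, 294 and 189, and the CD15 negative arrays 281, 266, 229, 347 and 253. The ranges overlapped in both models, and in Math1-GFP tumours 1 CD15 positive array, number 7, reached into the CD15 negative range. The log2 difference, CD15 positive minus negative, was -0.51 ± 0.18 (SE) in conventional tumours (limma adjusted p = 0.088) and -0.43 ± 0.21 in Math1-GFP tumours (adjusted p = 0.58). Without conventional CD15 positive array 4, Bbc3 passed in conventional tumours (-0.62, limma adjusted p = 0.040). Averaged over both models, Bbc3 was lower in CD15 positive cells by a log2 difference of -0.47 ± 0.14, with a 95% interval from -0.76 to -0.18 (fold 0.722, adjusted p = 0.034). It was the 1 member of 9 called in that average, where 9.74% of all genes were called and 5.97% were called lower.

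The Bbc3 difference had the same sign in every pair of arrays. Conventional samples carry the numbers 2 to 6 in both fractions and an unnumbered sample in each. CD15 positive was the lower array in 6 of 6 of these pairs, by log2 differences between -1.01 and -0.15. Consecutive Math1-GFP numbers (a pairing the labels do not state) gave 4 of 4 lower, between -0.66 and -0.22. Mcl1 probe set 1416880_at was also lower in 6 of 6 and 4 of 4 pairs, by smaller differences (medians of -0.21 and -0.11). The share of all genes with the same sign in every pair was not counted. The call in the average lay close to the threshold: leaving out 1 array at a time gave adjusted p from 0.014 to 0.081 and ended it for 12 of 21 arrays, which were conventional CD15 positive 1 (the unnumbered array), 2, 3 and 5, conventional CD15 negative 1, 2 and 4, Math1-GFP CD15 positive 1, 5 and 9, and Math1-GFP CD15 negative 2 and 8. Of 15 other settings, 6 ended it too. Adjusted p was 0.063 under quantile normalization, 0.078 on the numbered conventional arrays without a block, 0.091 without Math1-GFP arrays 1 and 2, and 0.072 with conventional arrays 2 to 5 only. It was 0.15 with only the unnumbered and number 6 conventional arrays and 0.086 without Math1-GFP arrays 9 and 10, sets of arrays chosen after the values were seen. The call held with the sample number as a block in the conventional arrays (limma adjusted p = 0.025). It also held with consecutive Math1-GFP numbers added to that block (adjusted p = 0.0036). Those fits called 14.2% and 29.7% of all genes in the average. The log2 difference was negative in each setting run.

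Bmf encodes a BH3-only protein tethered to the cytoskeleton through dynein light chains. Its signal in conventional tumours ran from 30.4 to 104 (median 54.6) in CD15 positive cells and from 47.7 to 215 (median 106) in CD15 negative cells. In Math1-GFP tumours the CD15 positive arrays read 60.5, 32.5, 34.1 and 68.8, and the CD15 negative arrays 58.2, 55.2, 65.1, 53.8 and 112. All ranges overlapped. The log2 difference was -0.61 ± 0.24 in conventional tumours (limma adjusted p = 0.13), -0.32 ± 0.28 in Math1-GFP tumours (adjusted p = 0.83) and -0.46 ± 0.19 in the average (adjusted p = 0.12). Bmf was lower in CD15 positive cells in 6 of 6 conventional pairs (-1.08 to -0.29) and in 3 of 4 consecutive Math1-GFP pairs (-0.59 to 0.04). With the sample number as a replicate block in the conventional arrays, which leaves out the unnumbered pair, Bmf passed the test in conventional tumours (-0.64, adjusted p = 0.030) and in the average (-0.48, adjusted p = 0.021). That fit called 9.99% and 14.2% of all genes in those comparisons. Leaving out conventional CD15 negative array 6 had the same effect, with adjusted p = 0.044 and 0.049.

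Bcl2l11 encodes Bim, a BH3-only protein that FOXO factors can induce. Its brightest probe set read 125 to 268 (median 203) and 151 to 247 (median 218) in conventional CD15 positive and negative cells. In Math1-GFP tumours the CD15 positive arrays read 208, 228, 132 and 187, and the CD15 negative arrays 212, 183, 243, 159 and 242. The 4 groups covered nearly the same range, and the log2 difference was -0.07 ± 0.18 in conventional tumours (limma adjusted p = 0.87) and -0.12 ± 0.20 in Math1-GFP tumours (adjusted p = 0.93). The 95% interval in conventional tumours ran from -0.44 to 0.30. Probe set 1426334_a_at of the same gene did not overlap between the Math1-GFP fractions, with CD15 positive arrays at 32.8, 48.5, 47.7 and 53.0 and CD15 negative arrays at 54.7, 53.3, 67.2, 68.4 and 58.7. That was 1 of 29 member probe sets, beside 4.67% of all probe sets, and it was not called (-0.26 ± 0.13, adjusted p = 0.67). In conventional tumours its difference was 0.18. Probe sets 1456005_a_at and 1435449_at lay further from 0 than the brightest, at -0.36 and -0.22 in conventional and -0.28 and -0.29 in Math1-GFP tumours. Probe set 1456006_at lay at -0.23 and 0.12, and none of these was called.

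Bid links death receptors to mitochondria once caspase-8 has cleaved it. Its signal ran from 200 to 352 (median 277) in conventional CD15 positive cells and from 224 to 383 (median 318) in CD15 negative cells. In Math1-GFP tumours the CD15 positive arrays read 142, 141, 212 and 177, and the CD15 negative arrays 143, 232, 243, 227 and 202. The fractions overlapped in both models, with log2 differences of -0.12 ± 0.14 (limma adjusted p = 0.68) and -0.27 ± 0.17 (adjusted p = 0.71). CD15 positive was the lower array in 5 of 6 conventional and 4 of 4 consecutive Math1-GFP pairs. The median log2 difference of the 4 BH3-only genes was -0.32 in conventional and -0.29 in Math1-GFP tumours, beside -0.02 and 0.0048 over all genes.

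**Figure D1:**
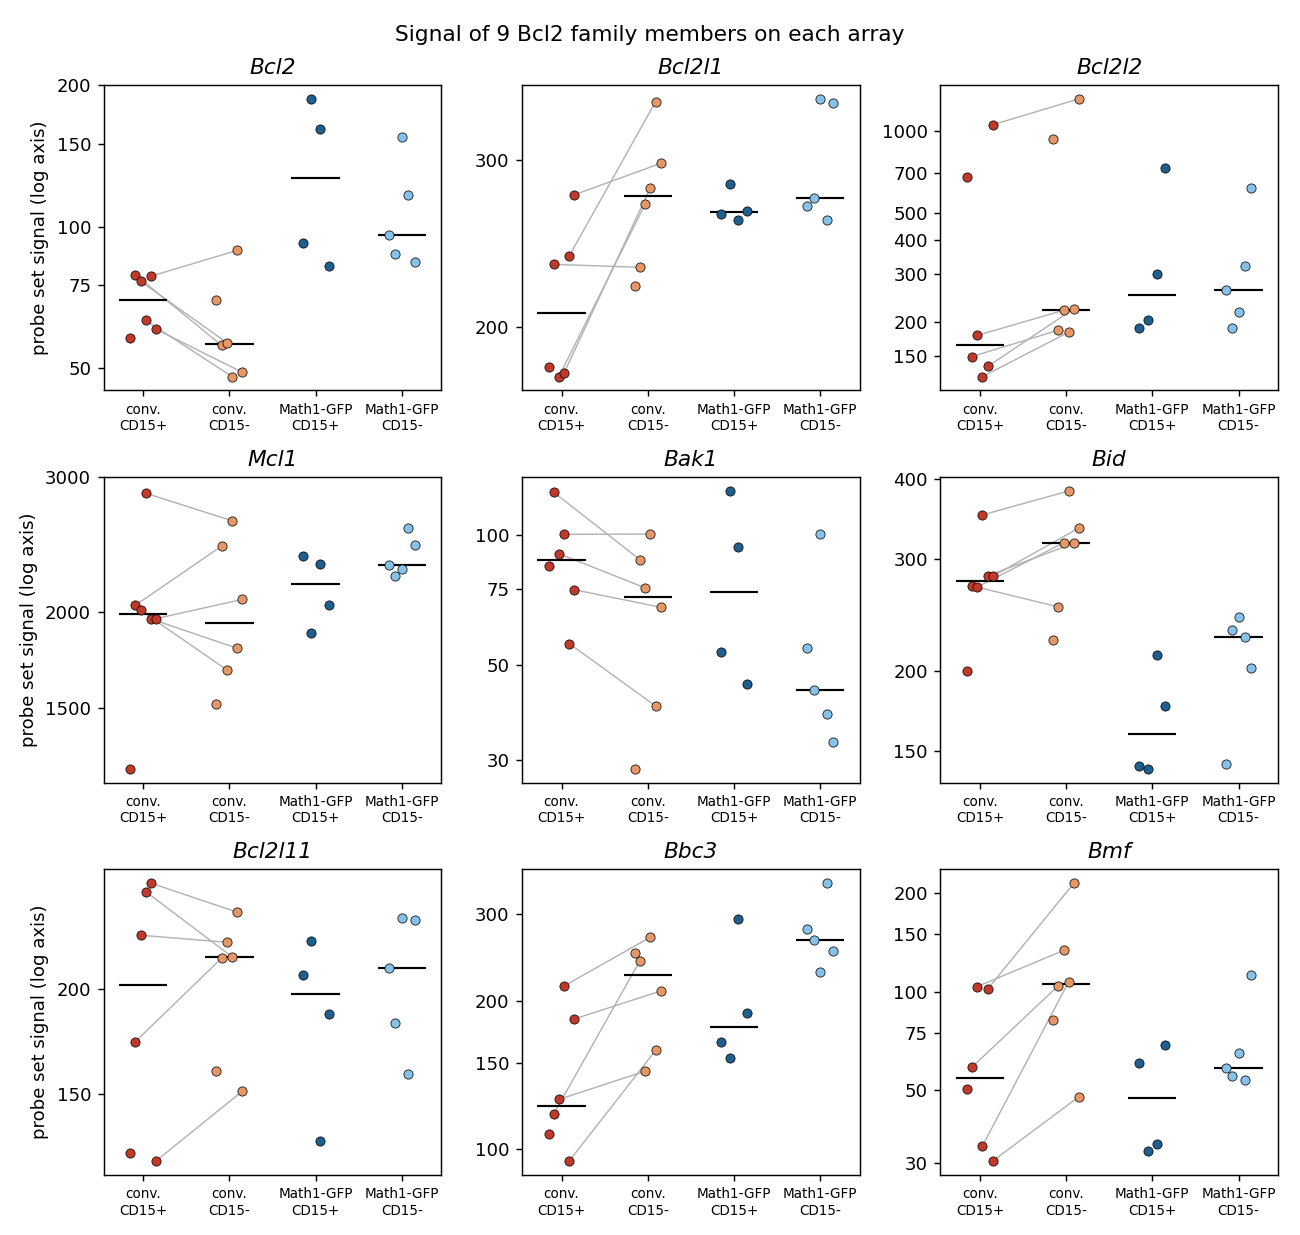
Signal of the brightest probe set of 9 members (y axis, log scale) on each of 21 arrays in the 4 groups (x axis); bars are group medians and grey lines join conventional arrays of the same number, 2 to 6. Bbc3 and Bmf lines rise from CD15 positive to CD15 negative in every joined pair, Bcl2 is higher in Math1-GFP tumours, Bid is lower there, and Bcl2l2 has at least 1 array far above the others in each group.

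Bak1, the measured effector, forms the pore itself. Its signal ran from 55.9 to 125 (median 87.4) in conventional CD15 positive cells and from 28.7 to 100.3 (median 71.6) in CD15 negative cells. In Math1-GFP tumours the CD15 positive arrays read 53.5, 126, 93.4 and 45.0, and the CD15 negative arrays 54.7, 43.8, 100.4, 38.3 and 33.0. Bak1 had the opposite sign to the BH3-only genes, with log2 differences of 0.32 ± 0.22 (limma adjusted p = 0.43), 0.36 ± 0.25 (adjusted p = 0.74) and, in the average, 0.34 ± 0.17 (adjusted p = 0.22), and the ranges overlapped. CD15 positive was the higher array in 5 of 6 conventional and 3 of 4 consecutive Math1-GFP pairs.

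Among survival members, Bcl2l1 encodes Bcl-xL, which protects differentiating neurons. It read 177 to 276 (median 207) in conventional CD15 positive cells and 221 to 346 (median 275) in CD15 negative cells. In Math1-GFP tumours the CD15 positive arrays read 263, 283, 260 and 265, and the CD15 negative arrays 268, 274, 348, 259 and 345. The fractions overlapped, and the log2 difference was -0.32 ± 0.12 in conventional tumours (limma adjusted p = 0.11), -0.13 ± 0.14 in Math1-GFP tumours (adjusted p = 0.87) and -0.23 ± 0.09 in the average (adjusted p = 0.13). Leaving out conventional CD15 positive array 6 put Bcl2l1 past the threshold in conventional tumours (-0.39, adjusted p = 0.047).

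Mcl1 is a short-lived survival protein whose level follows its synthesis closely. It read 1249 to 2858 (median 1986) and 1519 to 2631 (median 1935) in conventional CD15 positive and negative cells. The Math1-GFP CD15 positive arrays read 2364, 1878, 2309 and 2040 and the CD15 negative arrays 2304, 2228, 2273, 2576 and 2447. The ranges overlapped throughout. The log2 difference was -0.02 ± 0.16 in conventional (limma adjusted p = 0.97) and -0.14 ± 0.18 in Math1-GFP tumours (adjusted p = 0.91). On this brightest probe set CD15 positive was lower in 3 of 6 conventional pairs. Probe sets 1437527_x_at, 1456381_x_at and 1416880_at were lower in 6 of 6, 1456243_x_at in 5 of 6 and 1416881_at in 2 of 6. No Mcl1 probe set was called between the fractions of either model.

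Bcl2, the founding survival gene, read 57.8 to 78.9 (median 69.8) in conventional CD15 positive cells and 47.9 to 89.0 (median 56.2) in CD15 negative cells. The Math1-GFP CD15 positive arrays read 92.3, 187, 162 and 82.3 and the CD15 negative arrays 95.9, 87.4, 155, 117 and 84.1. CD15 fractions overlapped, with log2 differences of 0.13 ± 0.16 (limma adjusted p = 0.71) and 0.19 ± 0.18 (adjusted p = 0.86).

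Bcl2l2 (Bcl-w) is a survival gene of mature neurons and testis. It read 127 to 1053 (median 164) in conventional CD15 positive cells and 184 to 1309 (median 222) in CD15 negative cells. The Math1-GFP CD15 positive arrays read 191, 203, 301 and 729 and the CD15 negative arrays 263, 190, 218, 321 and 618. Every group held both low and high arrays, and the fractions overlapped. The log2 difference was -0.39 ± 0.54 in conventional (adjusted p = 0.74) and 0.05 ± 0.63 in Math1-GFP tumours (adjusted p = 0.99).

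Counted together, 0 of the 9 members passed the CD15 test in conventional tumours, where 8.13% of genes did. Of these members 3 (Bcl2l1, Bbc3 and Bmf) had an unadjusted limma p under 0.05 in that test, beside 2746 of 12367 genes. That test uses no pairing, and with the replicate block Bmf passed (limma adjusted p = 0.030), where 9.99% of genes did. In Math1-GFP tumours 0 of 9 passed, where 0.0404% of genes did, and 0 had an unadjusted p under 0.05, beside 1073 of 12367 genes. The CD15 difference was compared between the models directly, and 0 of 9 members and 0% of genes passed. On the brightest probe sets 0 members had an unadjusted limma p under 0.05 there, beside 279 of 12367 genes. The interaction estimates ran from -0.15 for Bid to 0.44 ± 0.83 for Bcl2l2. All comparisons draw on the same 21 arrays, so the average and the differences within each model are not independent. For 0 of 9 members did the fractions not overlap, beside 4.41% of genes in conventional and 5.32% in Math1-GFP tumours.

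The same comparisons over single probe sets called 0 of 29 member probe sets in conventional tumours, 0 in Math1-GFP tumours and 0 in the comparison of the CD15 difference between models, beside 5.91%, 0% and 0% of all probe sets. In the average 1 of 29 was called, the probe set of Bbc3 (limma adjusted p = 0.039), beside 7.52% of all probe sets and 4.92% in the lower direction. The fractions did not overlap for 0 of 29 in conventional tumours, beside 3.57% of all probe sets. When consecutive Math1-GFP numbers were taken as pairs as well, which the labels do not state, Bcl2l1, Bcl2l2, Bbc3 and Bmf were called lower in CD15 positive cells in conventional tumours, where 23.4% of genes were called. The same 4 were lower, and Bak1 was higher, in the average of that fit, where 29.7% of genes were called.

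**Figure D2:**
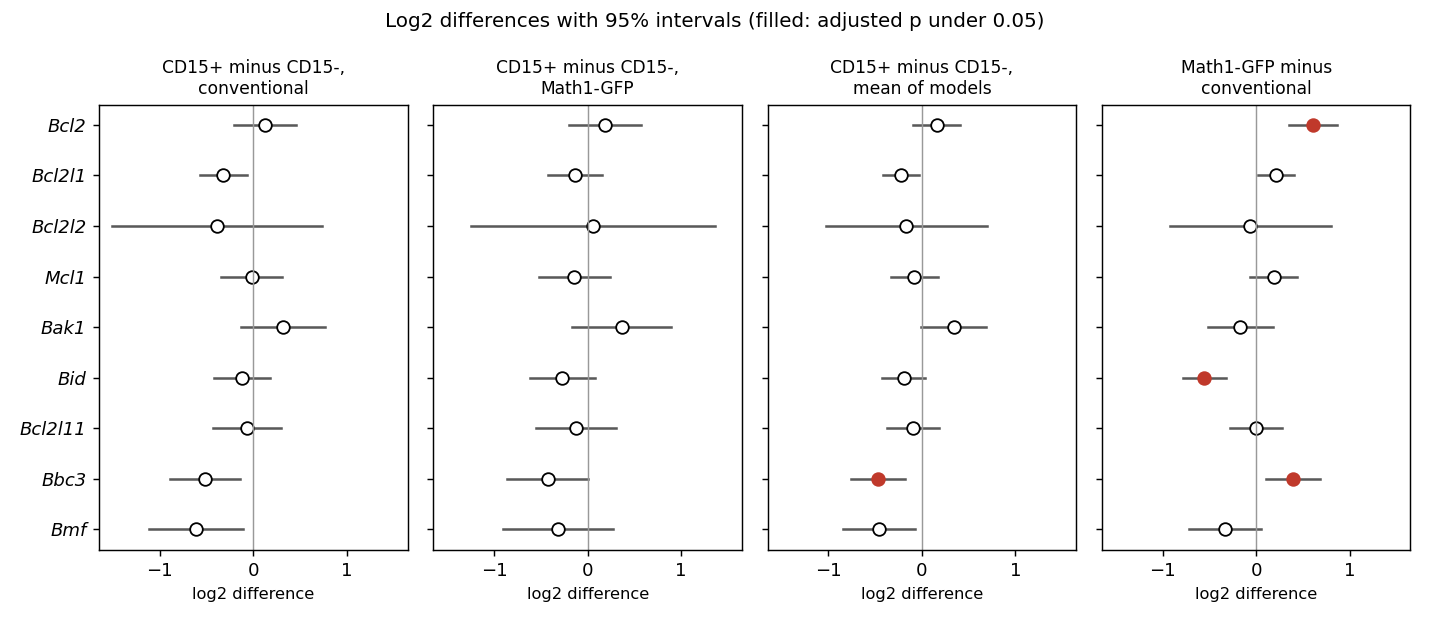
Log2 difference (x axis) with its 95% interval for 9 members (y axis) in 4 comparisons; filled points had a limma adjusted p under 0.05. Bbc3 in the average over models, and Bcl2, Bid and Bbc3 between models, are filled, and the interval of Bcl2l2 is the widest in each panel.

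Mitosis and neuron markers differed between the CD15 fractions as well. In the average over models, where Bbc3 was called, 8 of 8 mitosis markers were higher and 6 of 7 neuron markers lower in CD15 positive cells, and in Math1-GFP tumours alone 1 of 8 and 0 of 7 were called. The summed signal of the 8 mitosis markers ran from 19180 to 25775 in conventional CD15 positive cells and from 7653 to 15170 in CD15 negative cells, and from 17204 to 23898 and 10104 to 13942 in Math1-GFP tumours. The 7 neuron markers summed to 4253 to 9000 and 8525 to 19853 in the conventional fractions, and to 6163 to 9651 and 10025 to 14105 in the Math1-GFP fractions. The mitosis sums did not overlap between fractions in either model. In the average over models 1 of 6 astrocyte markers was higher and 2 of 7 granule lineage markers were lower in CD15 positive cells. Of 10 microglia and macrophage markers 0 were called there, and 9 had a positive log2 difference (median 0.53). The part of all these cell types in the Bbc3 difference was not tested.

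Between the tumour models, 3 of the 9 members were called, beside 39.2% of all genes, with 2 higher in Math1-GFP tumours (18.7% of genes) and 1 lower (20.5%). For 0 of 9 members did the models not overlap, beside 4.92% of genes. Bcl2 was higher in Math1-GFP tumours by a log2 difference of 0.61 ± 0.12, with a 95% interval from 0.35 to 0.86 (fold 1.52, limma adjusted p = 0.00058). Its 12 conventional arrays lay between 47.9 and 89.0 and the 9 Math1-GFP arrays between 82.3 and 187, so the models overlapped in a narrow range. The Bcl2 call held under every alternative run, with adjusted p from 3.7e-05 to 0.019, and for each array left out, from 0.00021 to 0.0021.

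Bid was lower in Math1-GFP tumours by a log2 difference of -0.55 ± 0.11 (fold 0.681, limma adjusted p = 0.00054). Its signals reached from 200 to 383 in conventional and from 141 to 243 in Math1-GFP tumours. Taking the mean of all its probe sets in place of the brightest reduced the difference to -0.22 (adjusted p = 0.095). With conventional samples limited to the unnumbered and number 6 arrays, a set chosen after the values were seen, the Bid difference was -0.41 (adjusted p = 0.084).

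Bbc3 was higher in Math1-GFP tumours by 0.39 ± 0.14 (fold 1.31, limma adjusted p = 0.030). In both models together, the Math1-GFP CD15 negative arrays were the highest group and the conventional CD15 positive arrays the lowest, and neighbouring groups overlapped. This call ended under quantile normalization (0.27, adjusted p = 0.13) and without conventional CD15 positive 5, conventional CD15 negative 3, Math1-GFP CD15 positive 7 or Math1-GFP CD15 negative 8 (adjusted p = 0.052, 0.052, 0.087 and 0.059). It also ended without Math1-GFP arrays 9 and 10 (0.41, adjusted p = 0.052) and with the unnumbered and number 6 conventional arrays alone (0.30, adjusted p = 0.21). Both of these sets were chosen after the values were seen.

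The remaining members were not called between models as reported. The log2 difference was 0.21 ± 0.09 for Bcl2l1 (limma adjusted p = 0.078), 0.19 ± 0.12 for Mcl1 (adjusted p = 0.23), -0.34 ± 0.19 for Bmf (adjusted p = 0.15) and -0.17 ± 0.17 for Bak1 (adjusted p = 0.44). Bcl2l11 and Bcl2l2 lay at -0.00042 ± 0.13 (adjusted p = 1) and -0.06 ± 0.41 (adjusted p = 0.92). Bmf passed with the replicate block (-0.38, adjusted p = 0.023), a fit that called 46% of genes, and under quantile normalization (-0.48, adjusted p = 0.037). The fit with consecutive Math1-GFP numbers as pairs, where 55.6% of genes were called, called Bak1 (-0.26) and Bmf (-0.40) lower in addition to the 3 members above. Bcl2l1 passed with the mean of its probe sets (0.45, adjusted p = 0.00022) and without conventional CD15 negative array 5 (adjusted p = 0.038) or conventional CD15 positive array 6 (adjusted p = 0.034). Mcl1 passed under quantile normalization (0.40, adjusted p = 0.0093). With only the unnumbered and number 6 conventional arrays, a set chosen after the values were seen, its log2 difference was 0.42. Quantile normalization also changed the split of all calls: 47.7% of the called genes were higher in Math1-GFP tumours in the values as deposited and 37.1% after it.

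The title suffix le1 or le2 follows the tumour model, so whatever it marks and the model cannot be told apart. The microglia and macrophage markers moved with the model as well. All 10 measured of 12 were lower in Math1-GFP tumours, and Trem2 and Itgam were under the filter. Their summed signal ran from 640 to 11764 and from 288 to 3622 in conventional CD15 positive and negative cells, and from 311 to 1526 and 200 to 483 in the Math1-GFP fractions. The part of these cells in the Bcl2, Bid and Bbc3 differences was not tested.

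Probe sets of a member did not always move together. Tested one by one over 23211 probe sets, 10 of the 29 member probe sets were called between models, in 7 genes, beside 42.6% of all probe sets. Of these 9 were higher in Math1-GFP tumours, beside 26.8% of all probe sets, and 1 was lower, beside 15.8%. Bcl2 was called on 3 of its 5 probe sets (log2 differences of 0.61, 0.37 and 0.64). The single lower call was the brightest probe set of Bid, whose other probe sets lay at -0.11 and -0.01 and were not called. Names ending in x mark probe sets that may also bind other transcripts, and their part in these values was not tested.

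Mcl1 differed most between its own probe sets. Probe set 1416881_at read 282 to 554 in conventional CD15 positive and 323 to 540 in CD15 negative cells, and 598 to 896 and 634 to 851 in the Math1-GFP fractions. The models did not overlap, and the log2 difference was 0.84 ± 0.11 (limma adjusted p = 3.8e-06). The other 5 Mcl1 probe sets had differences from -0.23 to 0.19 and none was called. Bcl2l1 had a similar split: 1420887_a_at read 29.3 to 104 in conventional and 108 to 185 in Math1-GFP tumours, without overlap (0.63 ± 0.13, adjusted p = 0.00041), and 1426191_a_at was called too (0.51, adjusted p = 0.00034), while the brightest probe set was not. These were 2 of 29 member probe sets whose models did not overlap, beside 6.37% of all probe sets. For Bcl2l11, 1426334_a_at was called (0.36 ± 0.09, adjusted p = 0.0023) and correlated with the brightest probe set at r = 0.12 over 21 arrays. For Bcl2l2, 1430453_a_at was called higher in Math1-GFP tumours (0.65 ± 0.15, limma adjusted p = 0.0013), while the brightest probe set was not called. The 2 correlated at r = 0.10.

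**Figure D3:**
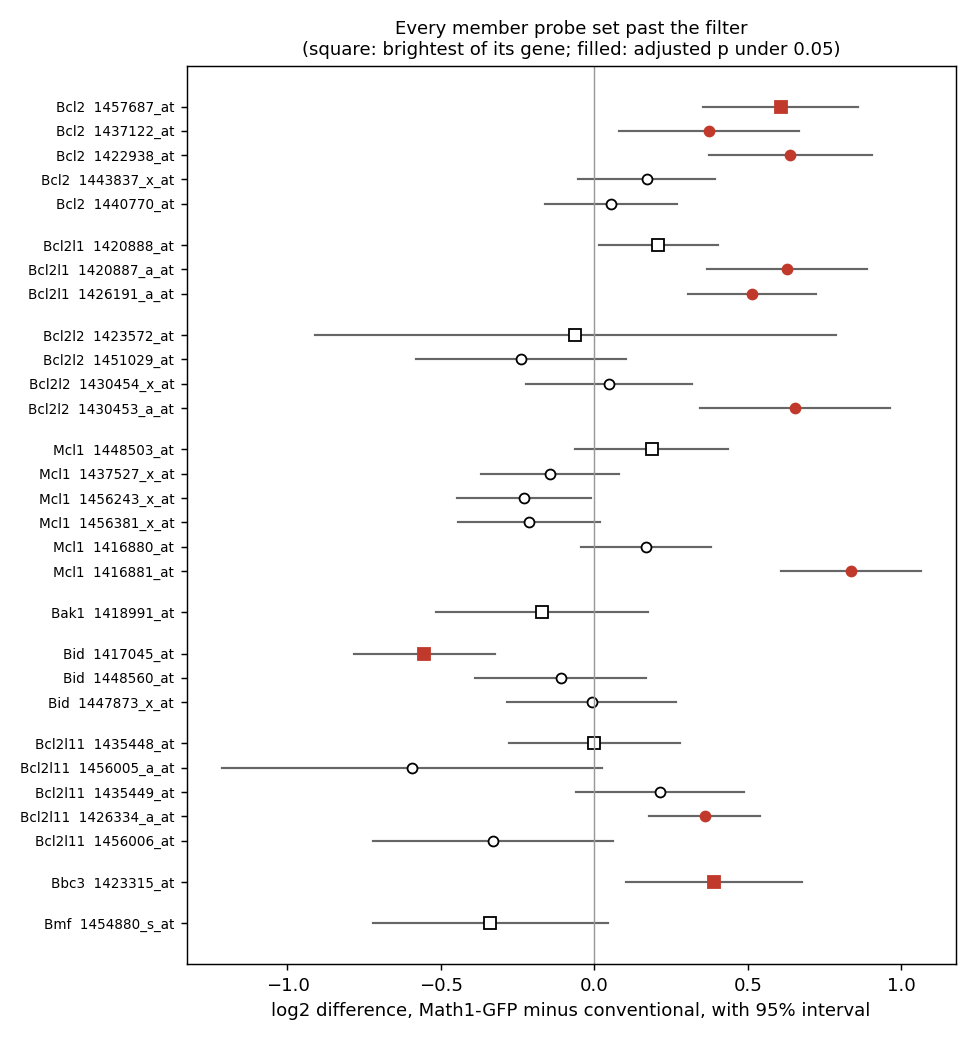
Log2 difference between tumour models (x axis, Math1-GFP minus conventional) with its 95% interval for each of the 29 member probe sets past the filter (y axis); squares are the brightest of a gene and filled symbols had a limma adjusted p under 0.05 over all probe sets. Mcl1 has 1 filled symbol at 0.84 while its other 5 lie between -0.23 and 0.19, and Bid is filled only at its brightest probe set.

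The brightest probe sets of Bcl2l2 and Bcl2l11 varied more with the number in the sample title than with the CD15 fraction. This grouping by number was chosen after the values were seen, and the sets of arrays were not tested against each other. Results given above with only the unnumbered and number 6 arrays, or without Math1-GFP arrays 9 and 10, carry the same limit. The Bcl2l2 signal was 676 to 1309 (median 993) on the 4 unnumbered and number 6 conventional arrays and 127 to 224 (median 181) on the 8 conventional arrays numbered 2 to 5. Math1-GFP arrays 9 and 10 read 729 and 618, and the other 7 Math1-GFP arrays read 190 to 321. High and low arrays occurred in both fractions, and CD15 positive was the lower array in all 6 conventional pairs, by log2 differences between -0.59 and -0.26. Bcl2l2 probe set 1451029_at read 28.7 to 66.8 on the unnumbered and number 6 arrays and 3.71 to 36.2 on numbers 2 to 5. It correlated with the brightest at r = 0.83 over the 21 arrays, and its ranges overlapped. The remaining Bcl2l2 probe sets followed the brightest less closely, at r = 0.46 for 1430454_x_at and 0.10 for 1430453_a_at. Probe set 1430453_a_at read 3.87 to 23.2 on the unnumbered and number 6 arrays and 3.54 to 41.3 on numbers 2 to 5.

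Within the conventional arrays Bcl2l11 ran the other way. Its probe set of widest signal range, 1456005_a_at, read 64.9 to 78.6 on the unnumbered and number 6 conventional arrays and 212 to 524 on numbers 2 to 5. On all Math1-GFP arrays it read 72.4 to 178, with a median of 144 on numbers 9 and 10 and 129 on the others. The brightest probe set read 125 to 160 and 173 to 268 on the same conventional arrays, and its medians were 215 on Math1-GFP arrays 9 and 10 and 208 on the others. Probe set 1426334_a_at did not follow, at 22.9 to 37.1 on the unnumbered and number 6 arrays and 21.3 to 53.2 on numbers 2 to 5. Over all 21 arrays Bcl2l2 and Bcl2l11 correlated at r = -0.65, which describes arrays that share these numbers. The unnumbered and number 6 arrays did not overlap with numbers 2 to 5 for these 2 of the 9 members, beside 10.2% of all genes, and for 5 of 29 member probe sets, beside 9.14% of all probe sets.

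The choice of conventional arrays turned the direction of the brightest Bcl2l2 probe set between models. With numbers 2 to 5 it was higher in Math1-GFP tumours by a log2 difference of 0.70. With the unnumbered and number 6 arrays it was lower, at -1.58. Because the grouping was chosen on values such as these, the turn of Bcl2l2 follows from the choice, and no p-value is given. Bmf was -0.56 with numbers 2 to 5 and 0.10 with the others. Bcl2 was called with either set of conventional arrays.

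**Figure D4:**
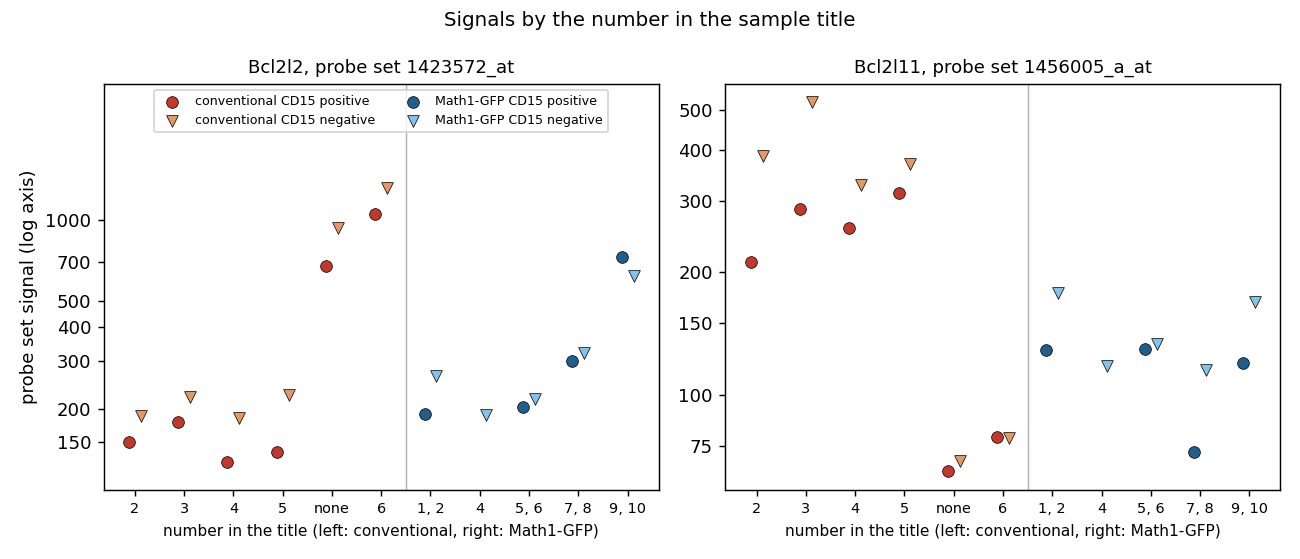
Signal (y axis, log scale) of Bcl2l2 probe set 1423572_at and Bcl2l11 probe set 1456005_a_at on each array by the number in its title (x axis); conventional arrays are left of the line and Math1-GFP arrays right of it. Each is the probe set of widest signal range of its gene. Bcl2l2 is high, and Bcl2l11 low, on the unnumbered and number 6 conventional arrays in both CD15 fractions. Bcl2l2 is also high on Math1-GFP arrays 9 and 10, where Bcl2l11 is not lower than on the other Math1-GFP arrays by median.

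Other genes of the death pathway were read beside the members. In the CD15 comparison of conventional tumours, 0 of 8 measured other Bcl2 relatives, 0 of 13 caspases and mitochondrial death factors, 0 of 5 inhibitor of apoptosis genes, 0 of 15 regulators and 0 of 6 death receptor genes passed. By unadjusted limma p under 0.05 there were 1, 4, 1, 4 and 0 of them, beside 2746 of all 12367 genes. The nearest were Cycs, cytochrome c (0.38, adjusted p = 0.055), Usp9x, a deubiquitinase of Mcl1 (-0.39, adjusted p = 0.064), and Hrk, a neuronal BH3-only gene (-1.21, adjusted p = 0.087). For the other lists the smallest p belonged to Birc2, an inhibitor of apoptosis (-0.27, adjusted p = 0.13), and the receptor Tnfrsf1a (0.33, adjusted p = 0.67).

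In Math1-GFP tumours 0 of those genes passed, and the smallest adjusted p of each list belonged to Foxo1 (0.60, adjusted p = 0.30), Bcl2l12 (0.59, adjusted p = 0.58), Ngfr (0.70, adjusted p = 0.61), Casp9 (-0.28, adjusted p = 0.68) and Birc3 (0.37, adjusted p = 0.74). By unadjusted limma p under 0.05 there were 3, all regulators, beside 1073 of all 12367 genes. In the average over models, Casp9, the initiator caspase of the mitochondrial route, was lower in CD15 positive cells (-0.34 ± 0.11, adjusted p = 0.045), and Foxo1, a FOXO factor, was higher (0.43 ± 0.13, adjusted p = 0.045). No other gene of the 5 lists passed there, and the nearest in the remaining lists were Bcl2l12 (0.54, adjusted p = 0.076), Ngfr (0.44, adjusted p = 0.27) and Birc2 (-0.14, adjusted p = 0.30). The comparison of the CD15 difference between models called 0 of them, with adjusted p = 1 for Cycs, Tradd, Birc2, Bok and Tmbim6.

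The lists of other death pathway genes were compared between models too. Of 13 caspases and mitochondrial factors, 10 were lower and 2 higher in Math1-GFP tumours, with a median of -0.41 beside -0.0066 over all genes. The lower ones were led by the mitochondrial channel Vdac3 (-0.49, limma adjusted p = 3.6e-06), the nuclease Endog (-0.76), Cycs (-0.62), Vdac2 (-0.41) and Vdac1 (-0.40). The higher ones were Casp2 (0.86, adjusted p = 0.00057) and Apaf1, which builds the apoptosome with cytochrome c (0.34, adjusted p = 0.015).

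Of 5 inhibitor of apoptosis genes, Xiap (0.38, limma adjusted p = 0.021) and Birc6 (0.32, adjusted p = 0.035) were higher. Among 15 regulators 5 were higher, namely Mdm2 (0.62), Huwe1 (0.56), Usp9x (0.47), Bag4 (0.25) and Tmbim6 (0.25). Mdm2 restrains p53 and is, like Bbc3, a p53 target, and its CD15 difference was -0.25 in conventional (adjusted p = 0.27) and -0.09 in Math1-GFP tumours (adjusted p = 0.94). Huwe1 and Usp9x act on Mcl1 protein in opposite ways, as its ubiquitin ligase and its deubiquitinase. The 6 lower regulators included Bag1 (-0.62), Dynll1 (-0.87), Ddit3 (-0.69), Foxo3 (-0.33) and Dynll2 (-0.31). Dynll1 and Dynll2 encode the dynein light chains that tether Bim and Bmf.

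Of 6 death receptor genes, Ngfr (0.85, limma adjusted p = 0.0076) and Cflar (0.34, adjusted p = 0.035) were higher, and Tradd (-0.70, adjusted p = 0.00012) and Tnfrsf1a (-0.80, adjusted p = 0.032) lower. Of 8 other Bcl2 relatives only Bad, a BH3-only gene, passed (-0.65, adjusted p = 0.0087). These lists are given as counts beside the 39.2% of all genes called between models.

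For each member the 2 genes of most similar signal over the 21 arrays were recorded by Pearson's r of log2 values, as a description of arrays that share groups and numbers. They were Tmem200c and Speer8-ps1 for Bcl2 (r = 0.87 and 0.85), Mycbp2 and Dis3l2 for Bcl2l1 (0.82 and 0.82), Grasp and Hebp2 for Bcl2l2 (0.87 and 0.86), and C130071C03Rik and 2210408K08Rik for Mcl1 (0.83 and 0.80). Bak1 was nearest to Actn1 and Mapk14 (0.87 and 0.79). Bid was nearest to Ebpl and Rmdn1 (0.89 and 0.88), Bcl2l11 to Mef2c and Ankhd1 (0.83 and 0.81), Bbc3 to Trib1 and Cemip (0.83 and 0.83), and Bmf to Them4 and Tlcd3b (0.91 and 0.87). Among the members themselves the pairs furthest from 0 were Bcl2l2 with Bcl2l11 (-0.65), Mcl1 with Bbc3 (0.59) and Bcl2 with Bid (-0.58). Bbc3 and Bmf correlated at -0.18 over all arrays.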

How the data were processed

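RNA of 21 sorted samples was measured on Affymetrix mouse arrays, 1 an array. The authors deposited a linear intensity per probe set, and the steps from scan to intensity are not given in the sources used here. Judged by the values, each array was scaled to a mean of 150 after trimming 2% at each end. The 64 control probe sets were left out. Symbols came from the platform annotation: 34958 of 45101 probe sets had 1 symbol, 932 several and 9211 none, and those with several or none were not used; 34897 were found in the reference table (GRCm38.p6). Probe sets with a mean under the 40th percentile (signal 15.5) were left out.

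Values were taken as log2(signal + 32). A model with 4 group means was fitted in limma (3.58.1, R 4.3.3), which left 17 residual degrees of freedom, with 5 comparisons, two-sided p-values and Benjamini-Hochberg adjustment. The fitting script was tested on simulated data. Same-numbered conventional arrays deviated together (r of 0.583 to 0.757 in 5 pairs, -0.555 to 0.477 in 30 pairs of unlike number). The tests as reported use no pairing, and a fit with the number as a replicate block stands beside the calls it alters. In that fit the Math1-GFP arrays carry no block but share the estimate of the spread, so it is not a paired test of conventional tumours alone. For Bcl2l2 in conventional tumours the SE was 0.313 there and 0.096 with consecutive Math1-GFP numbers added, at the same log2 difference of -0.37. The unnumbered arrays, which that block leaves out, correlated at 0.72. The alternatives were quantile normalization, other pseudocounts, filters and probe set summaries, other estimates of the spread, blocks, and arrays left out.

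Members and gene lists were chosen with earlier results of these data known. Named genes are all members, per other list up to 5 called genes a direction or otherwise the 1 of smallest p, and the 2 genes most correlated with each member. Figures were drawn with matplotlib 3.10.9. The number of arrays limits the precision.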

Additional observations from a re-analysis of the deposited data

Results flagged for a closer look

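Of 36 combinations of a member and a group, 1 had an array far from the others by Dixon's criterion for 4 to 10 samples. Bmf read 112.495 on Math1-GFP CD15 negative array 10, and the next highest array of that group read 65.1. The gap was 0.761 of the group's range, above the critical value of 0.71. Chance alone gives such a gap in about 1 in 20 groups.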

How the results depend on the processing

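The members' log2 differences were recomputed in 16 other ways (558 values: 508 kept direction and side of the threshold, 11 lost and 19 gained a call, 20 changed sign) and with each array left out (756 values: 707, 16, 6 and 27). Of the 47 changes of sign, 1 had a call on either side. The number of members called stayed at 0 in Math1-GFP tumours and in the comparison between models of the CD15 difference. In conventional tumours it was 1 with the replicate block, 4 with consecutive numbers as a block, and 0 to 1 with an array left out. In the average it was 2 and 5 with those blocks; 0 under quantile normalization, on the numbered arrays without a block, without Math1-GFP 1 and 2, with conventional 2 to 5 only and, both chosen after seeing the data, with the unnumbered and number 6 arrays only or without Math1-GFP 9 and 10; and 0 to 2 with an array left out. Between models it was 5 with consecutive numbers and with conventional 2 to 5 only, and 2 to 4 with an array left out. Against the fit as reported, the replicate block changed no call but those of Bmf. Against the same numbered arrays without a block, it also brought the call of Bbc3 in the average (limma adjusted p = 0.078 without and 0.025 with it). Over all genes, 1006 were called in conventional tumours as reported, 2898 with consecutive numbers, 0 with the unnumbered and number 6 arrays and 606 without conventional CD15 negative 5. In the average 1204 became 3673, 250 and, without Math1-GFP 9 and 10, 701. Between models 4845 became 2621 with the unnumbered and number 6 arrays, and 9894 were called over single probe sets. In Math1-GFP tumours 5 became 0 to 926 (173 with the replicate block, 0 to 26 with an array left out), and the comparison of the CD15 difference between models gave 0 to 1.

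Signs turned in conventional tumours for Bcl2 (mean of probe sets, -0.0145), Mcl1 (0.0324 with the replicate block, without it on the same arrays and with consecutive numbers, 0.0609 with 2 to 5 only) and Bcl2l11 (0.00043 under quantile normalization, 0.0176 with 2 to 5 only). In Math1-GFP tumours Bcl2l2 was -0.0865 with consecutive numbers and -0.0875 without 9 and 10, and in the average it was 0.0225 with the mean of probe sets. Between models Bcl2l2 was 0.0997 (mean of probe sets), 0.188 (numbered arrays, with the replicate block or without), 0.118 (consecutive numbers), 0.0577 (without 1 and 2) and 0.70 (2 to 5 only). Bcl2l11 was 0.0025 with a pseudocount of 1, and with the unnumbered and number 6 arrays it was 0.40, Bak1 0.0181 and Bmf 0.10. With an array left out, signs turned within these ranges: in conventional tumours Mcl1 (-0.13 to 0.11) and Bcl2l11 (-0.16 to 0.030); in Math1-GFP tumours Bcl2l2 (-0.34 to 0.30) and Bcl2l11 (-0.21 to 0.012); in the average Bcl2l2 (-0.36 to 0.0087); between models Bcl2l2 (-0.26 to 0.12) and Bcl2l11 (-0.050 to 0.068).

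Bmf, Bcl2 and Bak1 had arrays near or below a signal of 50, where the pseudocount compresses differences, and Bax had no probe set to read. With 4 to 6 arrays in a group some intervals were wide, and that of Bcl2l2 in the comparison of the CD15 difference between models ran from -1.28 to 2.16. The cause of the changes with array choice was not tested.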
